A study of Homo sapiens with 18 samples.

Results

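The transcripts described here are 10 genes of the BCL2 family, the proteins that set whether a cell's mitochondria are opened during programmed cell death. They were taken by symbol from the table of raw counts, where all 10 were found among 28395 genes, and all 10 passed the filter on low counts that left 14522 genes for testing. The survival proteins are BCL2, BCL2L1 (BCL-XL), BCL2L2 (BCL-W), MCL1 and BCL2A1 (BFL1). The BH3-only death triggers are BCL2L11 (BIM), BBC3 (PUMA) and PMAIP1 (NOXA), and the pore-forming effectors are BAX and BAK1 (BAK).

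H929, MM1S and OPM2, the 3 lines studied, are established lines grown from human multiple myeloma, a cancer of plasma cells, and 2 libraries were made in each of 9 groups. In every line a doxycycline-inducible CRISPR-Cas9 knockout of IKZF1 (Ikaros) was set against an empty vector control, and OPM2 also had an inducible knockout of IKZF3 (Aiolos). A further pair of OPM2 groups had lenalidomide at 10 µM or was the control labelled NT, called untreated here. The labels give the empty vector cells doxycycline at 1 µg/mL, and the shared protocol has cells under that agent, which switches on the guide RNA, or under lenalidomide for 72 h. For the untreated and lenalidomide cells the labels name no doxycycline, and they were taken to have had none, which no test used. Whether the 2 knockout libraries of a group are clones, guides or cultures is not stated either. Lenalidomide is a drug that directs the IKZF1 and IKZF3 proteins to degradation. Cells were sorted as live by light scatter before RNA was extracted, a gate meant to leave out dead cells. The series title concerns CD38 and killing by the antibody daratumumab, and the labels state no question about the BCL2 family.

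In the mitochondrial pathway of cell death, BH3-only proteins bind survival proteins in a groove on their surface, and when the survival proteins are full, BAX and BAK1 assemble into pores in the outer mitochondrial membrane. Plasma cells and many myelomas lean on MCL1, while BIM is often held bound to MCL1, BCL2 or BCL-XL. Venetoclax blocks BCL2 and other drugs of this kind block MCL1 or BCL-XL. NOXA binds mainly MCL1, and PUMA binds all of the main survival proteins. Much of this control acts on the proteins, which were not measured here.

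Libraries held 11.8 to 24.18 M counts. OPM2 empty vector replicate 1 stood apart: 1625 genes lay more than 2-fold from its partner, against 258 to 973 genes in the other pairs, and its TMM scaling factor was the lowest at 0.8597. The transcripts of IKZF1 and IKZF3 were not lower than with empty vector in any knockout group. Both were called higher in MM1S without IKZF1 (log2 fold change 0.83 and 0.68). Both were also called higher in OPM2 without IKZF1 (0.63 and 0.76) or IKZF3 (0.64 and 0.53), and neither was called in H929. In OPM2, however, 1 of these 2 genes was called lower with empty vector than in untreated cells (median log2 fold change of the 2 genes -0.5). Their levels in the OPM2 knockouts against untreated cells are not given here. A transcript count does not check an edit of the coding sequence. Summed over 8 plasma cell markers, levels were 7211 to 22330 CPM (counts scaled to a common library size, not to transcript length) in all 18 libraries. In MM1S they were 11640 to 12010 CPM without IKZF1, against 7211 to 7318 CPM with empty vector, and 5 of these 8 markers were called higher there. In H929 they were 19020 to 19200 CPM without IKZF1, against 21650 to 22330 CPM with empty vector, with 1 marker called higher and 2 lower. In OPM2, 2 were higher and 2 lower without IKZF1, and 3 higher and 1 lower without IKZF3. With lenalidomide 1 was higher and 2 lower. The corresponding sums were 0 to 44.8 CPM for 8 T or NK cell markers, 1.78 to 249 CPM for 8 myeloid markers and 6.33 to 331 CPM for 8 stroma or epithelium markers. Myeloid sums were 181 to 249 CPM in H929 IKZF1 knockout against 38.4 to 40.55 CPM with empty vector, and 81.6 to 86.7 CPM in MM1S knockout against 36.8 to 37.5 CPM. In OPM2 they were 13.3 to 32.1 CPM without IKZF1 and 26.6 to 30.1 CPM without IKZF3, against 1.78 to 3.16 CPM with empty vector, and 26.6 to 33.9 CPM with lenalidomide, against 2.94 to 3.495 CPM in untreated cells. Stroma or epithelium sums were 57.6 to 61.7 CPM in MM1S knockout against 6.33 to 6.81 CPM with empty vector, and 274 to 331 CPM in H929 knockout against 198 to 201 CPM. In OPM2 they were 14.8 to 21.1 CPM without IKZF1 and 8.88 to 9.66 CPM without IKZF3, against 8.68 to 10.6 CPM with empty vector, and 20.9 to 22.6 CPM with lenalidomide, against 12.1 to 14.7 CPM in untreated cells. Of 4 T or NK cell markers tested, 1 was called higher, in MM1S. Of 4 myeloid markers tested, 3 were called higher in MM1S and 1 in each of the other comparisons. Of 4 stroma or epithelium markers, 0 to 2 were called higher. In each group 1 to 4 of the 8 myeloid markers had 0 counts in both libraries. Their part in the results below was not tested.

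Promoters of 3 members are shown because the genes behave differently in OPM2 below. BCL2L11 was called higher and BBC3 lower in all 3 of the OPM2 comparisons of a knockout or drug with its own control. Against untreated cells, however, BCL2L11 was not higher in the knockouts (log2 fold change -0.10 without IKZF1 and -0.02 without IKZF3). Of the 8 members with an entry, BAK1 is the one whose stretch holds the letters TGGGAA, a core of the Ikaros recognition motif. Each is the 250 bases before a RefSeq transcript start, 5′ to 3′ on the gene's own strand, in build GRCh38.p14. The BBC3 stretch overlaps the annotated BBC3 gene, which spans chr19:47220824-47232860, so it does not lie before the gene's outermost start. Capitals mark a match to TGGGAA.
BCL2L11 (chr2:111120664-111120913, plus strand): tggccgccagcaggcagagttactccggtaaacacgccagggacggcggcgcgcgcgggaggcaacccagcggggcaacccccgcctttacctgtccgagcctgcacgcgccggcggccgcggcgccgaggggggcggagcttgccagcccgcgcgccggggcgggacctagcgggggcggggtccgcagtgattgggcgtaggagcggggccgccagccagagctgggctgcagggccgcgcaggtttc
BBC3 (chr19:47232668-47232917, minus strand): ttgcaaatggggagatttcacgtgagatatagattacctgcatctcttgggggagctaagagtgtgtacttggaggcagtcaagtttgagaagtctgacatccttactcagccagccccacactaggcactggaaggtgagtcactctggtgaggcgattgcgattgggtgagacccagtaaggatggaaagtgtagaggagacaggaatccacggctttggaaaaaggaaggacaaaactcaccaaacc
BAK1 (chr6:33580277-33580526, minus strand): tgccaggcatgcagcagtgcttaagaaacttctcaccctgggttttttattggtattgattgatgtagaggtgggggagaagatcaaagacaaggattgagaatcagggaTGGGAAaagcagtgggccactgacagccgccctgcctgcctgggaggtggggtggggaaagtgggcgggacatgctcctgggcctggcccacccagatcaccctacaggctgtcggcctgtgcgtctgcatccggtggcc

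The RefSeq promoter set used had entries for 8 of the 10 members, 9 in all since BCL2L1 has a pair of start sites. MCL1 and BCL2L2 had no entry there, so the search does not cover them. TGGGAA, searched on both strands with no other motif overlapping it, was found in 1 of the 9 entries, that of BAK1, where it begins at position -140 from the start. Of 35116 promoter entries of the same length, 20.8% held it. G and C made up 76.8% of the BCL2L11 stretch, 49.2% of that of BBC3 and 58% of that of BAK1, against a median of 58% over all entries.

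In H929 lacking IKZF1, 3 of the 10 members rose and 0 fell (edgeR, adjusted p below 0.05), all of them survival genes, where 10.5% of all tested genes were called, 5.94% higher and 4.61% lower. In MM1S lacking IKZF1, 1 member rose and 1 fell, where 28.3% of all genes were called, 15.6% higher and 12.7% lower. In OPM2 lacking IKZF1, 2 members rose and 2 fell against empty vector, where 36.3% of all genes were called, 16.2% higher and 20.1% lower. In OPM2 lacking IKZF3, 3 rose and 2 fell, where 36.9% of all genes were called, 16.2% higher and 20.7% lower. These OPM2 shares of members are near the background. Lenalidomide raised 2 members and lowered 1 against untreated OPM2 cells, with 10.4% of all genes called, 5.78% higher and 4.59% lower. Between IKZF1 and IKZF3 knockouts of OPM2, 0 members were called by edgeR, DESeq2 or limma-voom, 1 had an unadjusted edgeR p below 0.05 (MCL1), and 2.6% of all genes were called.

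With 2 libraries a group, most genes separate without overlap: 60.2% of all genes did in the H929 comparison, 72.9% in MM1S, 59.6% in OPM2 without IKZF1, 60.4% in OPM2 without IKZF3, 65.4% with lenalidomide and 63.4% between the OPM2 controls. Non-overlap of a member's libraries, where it is given below, is read against those shares. The median log2 fold change over the members was 0.56 in H929, 0.34 in MM1S, 0.08 and 0.04 in OPM2 without IKZF1 and without IKZF3, and 0.22 with lenalidomide. Medians over all genes lay between -0.03 and 0.00 in these comparisons.

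**Figure D1:**
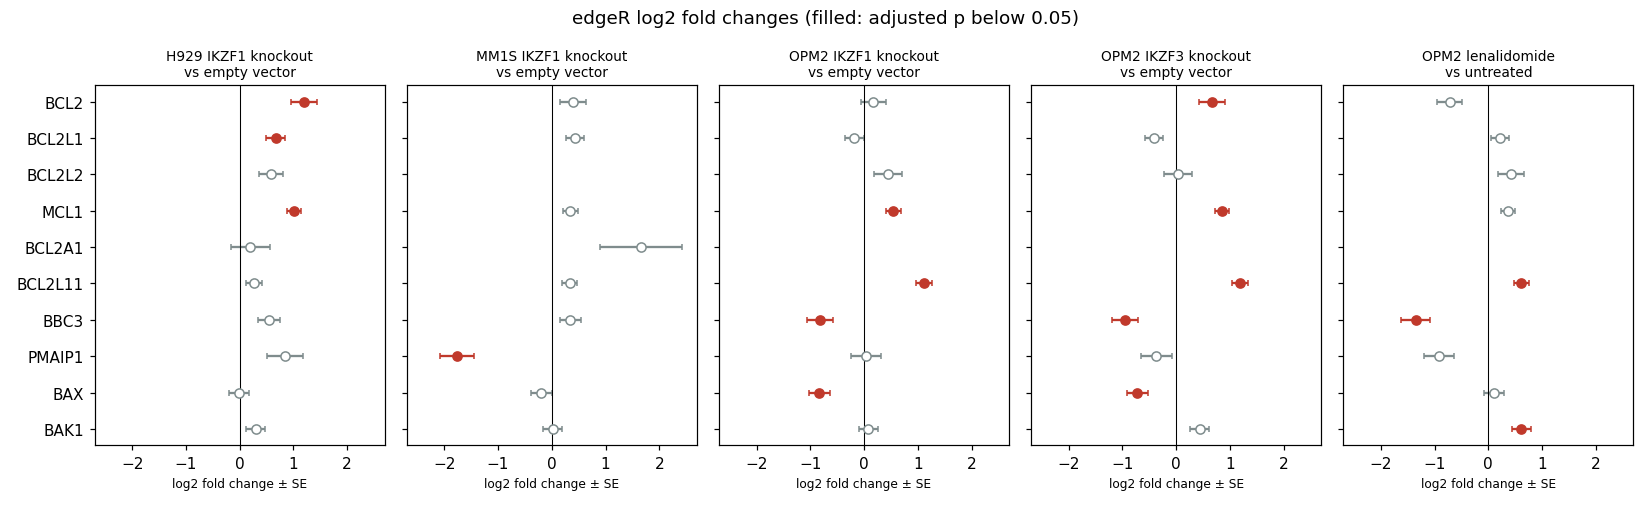
Log2 fold change ± SE (x axis) of each member (rows) in the 5 comparisons of a knockout or lenalidomide with its control, filled where the adjusted p was below 0.05. BCL2A1 in OPM2 and BCL2L2 in MM1S are left out because a group had 3 counts or fewer. MCL1 lies right of 0 in all 5 panels, and BBC3 lies left of 0 in the 3 OPM2 panels.

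MCL1, a short-lived survival protein, rose in 3 of the 5 comparisons of a knockout or drug with its control. In H929 it reached 4235 and 3212 CPM in the IKZF1 knockout libraries, against 1875 and 1810 CPM with empty vector. Both knockout libraries were well above both controls, and the log2 fold change was 1.02 ± 0.13 (SE; adjusted p = 0.000144). That call was kept in every alternative run, leaving out each library included. In OPM2, MCL1 stood at 557 and 537 CPM without IKZF1 and at 705 and 642 CPM without IKZF3, against 331 and 417 CPM with empty vector. It rose by 0.55 ± 0.13 without IKZF1 (adjusted p = 0.00645) and by 0.85 ± 0.13 without IKZF3 (adjusted p = 0.000627) on the log2 scale. Against untreated OPM2 cells in place of empty vector, the values were 0.33 (adjusted p = 0.157) and 0.63 (adjusted p = 0.00845), so the IKZF3 call held and the IKZF1 call did not.

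In MM1S, MCL1 was 582 CPM in both IKZF1 knockout libraries, against 469 and 448 CPM with empty vector. These groups did not overlap, but the log2 fold change of 0.35 ± 0.13 missed the threshold (adjusted p = 0.0677). It passed with either OPM2 empty vector library left out (0.00652 and 0.00814), with either H929 knockout library left out, with the stricter filter on low counts, with DESeq2 and in a fit of MM1S alone. With lenalidomide it was 572 and 546 CPM, against 434 CPM in both untreated libraries, and again it missed the threshold (log2 fold change 0.37 ± 0.13, adjusted p = 0.108), while DESeq2 called it (0.0453). The MM1S change was smaller than the H929 change by 0.67 ± 0.19 on the log2 scale (adjusted p = 0.025). That difference lost its call when either library of the MM1S groups, either H929 empty vector library or H929 knockout library a was left out.

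BCL2, the target of venetoclax, rose in H929. Its level was 122 and 98.0 CPM without IKZF1, against 47.0 and 48.8 CPM with empty vector, a log2 fold change of 1.197 ± 0.24 (adjusted p = 0.00447). The groups were far apart, and the call was lost by a small margin without knockout library a (adjusted p = 0.0527) or empty vector replicate 1 (adjusted p = 0.0542). In MM1S it was 119.6 and 131 CPM without IKZF1, against 94.1 and 97.1 CPM with empty vector, and the difference missed the threshold (0.39 ± 0.24, adjusted p = 0.244).

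In OPM2 the BCL2 level depended on the control. It was 157 and 119 CPM without IKZF3 and 123 and 73.4 CPM without IKZF1, against 64.9 and 109 CPM with empty vector and 149 and 145 CPM in untreated cells. Against empty vector the IKZF3 knockout was higher (0.67 ± 0.24, adjusted p = 0.0381), without empty vector replicate 1 the value was 0.38 (adjusted p = 0.35), without knockout library a it was 0.45 (adjusted p = 0.271), and against untreated cells the sign turned (-0.09 ± 0.23, adjusted p = 0.897). The IKZF1 knockout libraries lay on both sides of the empty vector mean. With lenalidomide BCL2 was 88.1 and 90.1 CPM, against 149 and 145 CPM in untreated cells, a difference of -0.72 ± 0.24 that missed the threshold (adjusted p = 0.0716). DESeq2 called it (adjusted p = 0.0363), as did a fit without the low-count filter (0.000243). Against the same untreated cells the IKZF1 knockout lay at -0.58 ± 0.24 (adjusted p = 0.167). The drug effect is taken from untreated cells and the knockout effects from empty vector, which lay lower in BCL2 by 0.75 ± 0.24. The lenalidomide effect was lower than the IKZF3 effect by 1.38 ± 0.33 on the log2 scale (adjusted p = 0.0313), a call lost without empty vector replicate 1 (adjusted p = 0.0802) and in 8 other leave-outs and refits.

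BCL2L1, which encodes BCL-XL, rose in H929 to 104 and 68.1 CPM without IKZF1, against 56.4 and 52.1 CPM with empty vector. The log2 fold change of 0.67 ± 0.17 (adjusted p = 0.0196) rested on knockout library a: without it the change was 0.33 (adjusted p = 0.32). It was also lost without empty vector replicate 1 (adjusted p = 0.0889) or 2 (adjusted p = 0.166). In MM1S, where BCL-XL was far more abundant, it was 477 and 485 CPM without IKZF1, against 352 and 362 CPM with empty vector. The groups were apart, and the change of 0.43 ± 0.17 just missed the threshold (adjusted p = 0.0666). DESeq2 (0.0424), limma-voom (0.0459) and fits without an OPM2 empty vector library called it. In OPM2 it was 45.8 and 46.8 CPM without IKZF1, 39.2 and 39.7 CPM without IKZF3 and 48.5 and 51.6 CPM with lenalidomide, against 60.4 and 44.7 CPM with empty vector and 41.3 and 44.6 CPM in untreated cells. None of these OPM2 differences passed the test. The OPM2 effect of IKZF1 knockout lay below that of H929 by 0.85 on the log2 scale (adjusted p = 0.0354), a call lost in 16 of 26 alternatives, with an adjusted p of up to 0.262. A long antisense gene, BCL2L1-AS1, overlaps BCL2L1, and without a stated strand setting reads of the 2 cannot be told apart.

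BCL2L2, which encodes BCL-W, was close to absent in MM1S with empty vector and detected after IKZF1 knockout. The knockout libraries held 19 and 32 counts, against 1 count in each empty vector library. The ratio of the sums, scaled for depth, was 30.6 with a 95% counting interval of 8.05 to 260, which covers counting error only, and the adjusted p was 3.61e-05. The call was kept in every alternative run. The knockout level was 1.97 CPM, which is 19.8% of the H929 empty vector level and 56.5% of that in OPM2. Among 58 genes under 0.1 CPM in MM1S empty vector and over 20 CPM in H929 empty vector, MM1S knockout levels had a median of 0.13% of the H929 level. Over 46 such genes of OPM2 the median was 0.0551%. BCL2L2 itself lay under 20 CPM in both lines with empty vector (9.958 CPM in H929 and 3.485 CPM in OPM2). The source of its counts in MM1S knockout was not tested. In H929 BCL2L2 was 15.9 and 13.9 CPM without IKZF1, against 10.1 and 9.78 CPM with empty vector (0.58 ± 0.22, adjusted p = 0.124), and in OPM2 it ran from 2.90 to 6.40 CPM over all 10 libraries with no call. The read-through gene BCL2L2-PABPN1 covers the same locus and had 0 counts in every library.

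BCL2A1, a survival gene switched on by NF-kB in B cells, was scarce throughout. It had 30 and 34 counts in H929 without IKZF1, against 37 and 44 counts with empty vector, and 8 and 3 counts in MM1S without IKZF1, against 3 and 1 counts with empty vector. OPM2 had 0 counts in 9 of 10 libraries and 1 count in lenalidomide replicate 2. No comparison of a knockout or drug called it. A count of 0 allows up to 3 counts, so a low level in OPM2 was not detectable at this depth.

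**Figure D2:**
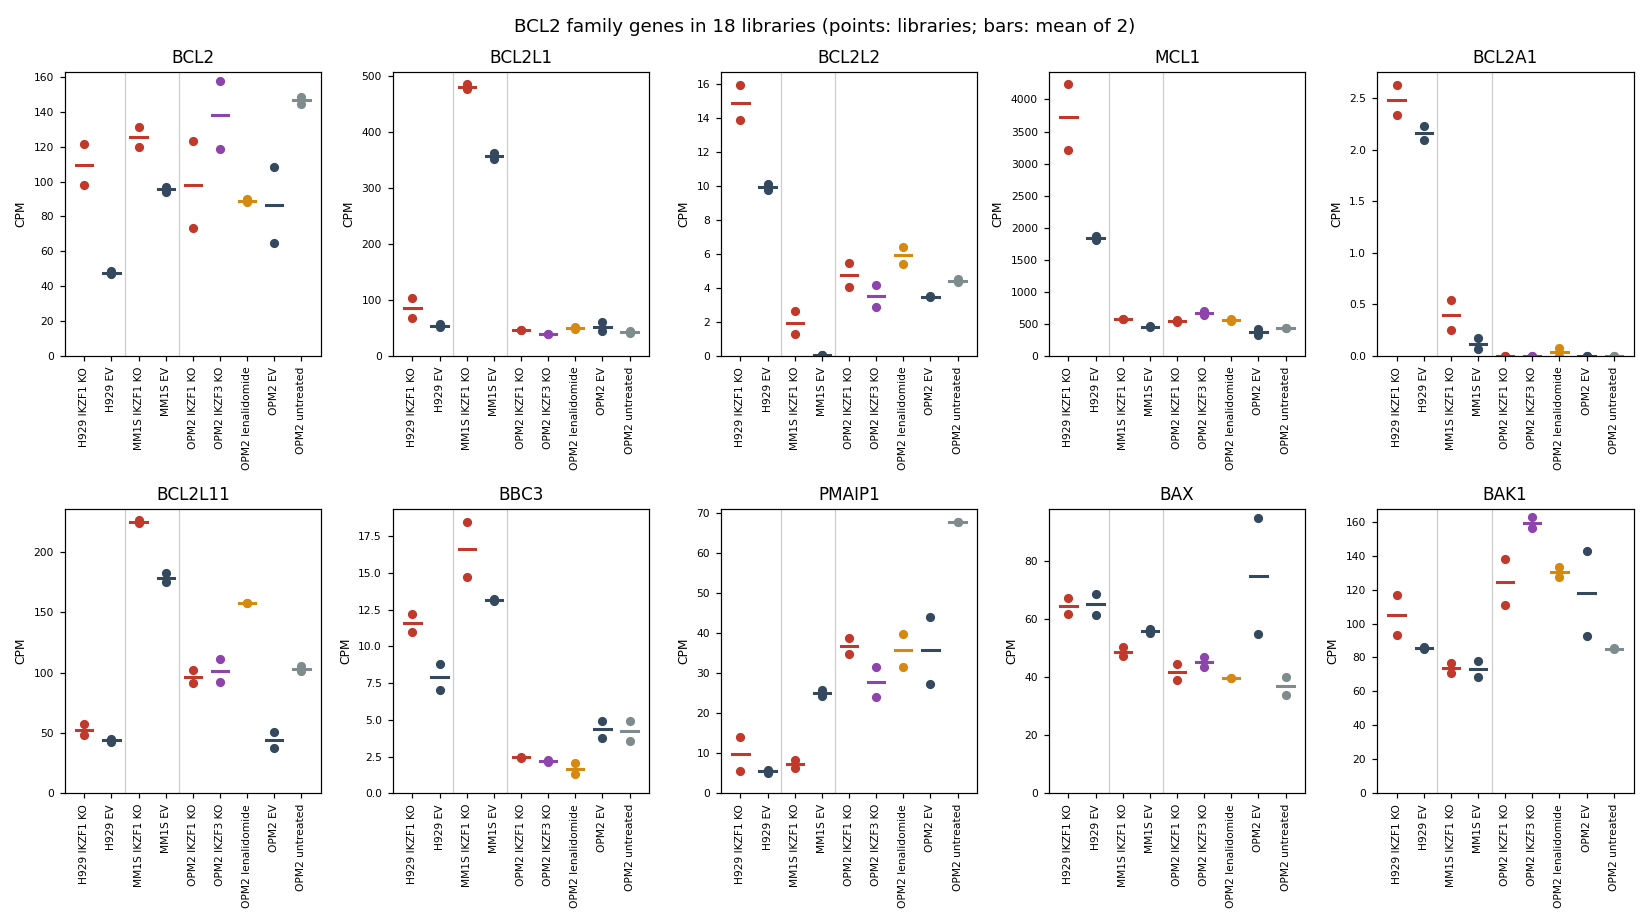
Level in CPM (y axis, from 0, a separate scale for each gene) in each library of the 9 groups (x axis), with points for libraries and bars for the mean of 2. MCL1 and BCL2 in H929 stand higher in the knockout than with empty vector, and PMAIP1 in MM1S stands lower.

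BCL2L11 encodes BIM, the BH3-only protein that can switch on BAX and BAK1 directly and is held in check by all main survival proteins. In OPM2 it stood at 91.1 and 102 CPM without IKZF1 and at 111 and 92.0 CPM without IKZF3, against 37.9 and 51.1 CPM with empty vector. No knockout library overlapped the control, and the log2 fold changes were 1.11 ± 0.15 (adjusted p = 0.000199) and 1.19 ± 0.15 (adjusted p = 0.000112). Untreated OPM2 cells, however, held 105 and 101 CPM, the same range as the knockouts. Against them the changes were -0.10 ± 0.14 (adjusted p = 0.774) without IKZF1 and -0.02 ± 0.14 (adjusted p = 0.983) without IKZF3. With lenalidomide BIM reached 157 and 158 CPM, against those 105 and 101 CPM, and rose by 0.61 ± 0.14 (adjusted p = 0.0116). The replicates of both groups were tight, although leaving out any 1 of these 4 libraries took the adjusted p to between 0.0794 and 0.117.

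In H929 BIM was 57.0 and 48.4 CPM without IKZF1, against 45.2 and 42.4 CPM with empty vector (0.27 ± 0.15, adjusted p = 0.3). In MM1S, the line with the most BIM, it was 226 and 224 CPM without IKZF1, against 175 and 182 CPM with empty vector, and the change of 0.33 ± 0.14 missed the threshold (adjusted p = 0.0919), though DESeq2 called it (0.0424). The OPM2 change exceeded that of H929 by 0.84 ± 0.20 (adjusted p = 0.0181) and that of MM1S by 0.78 ± 0.20 (adjusted p = 0.015) on the log2 scale, with the OPM2 empty vector group as the control. In fits of the compared libraries alone the adjusted p of these differences was 0.203 and 0.103. The difference from H929 was also not called without H929 empty vector replicate 1 (0.0805) or 2 (0.0515), H929 knockout library b (0.057) or OPM2 knockout library b (0.0681). That from MM1S was not called without MM1S empty vector replicate 2 (0.0522), MM1S knockout library b (0.0507) or OPM2 knockout library b (0.0582).

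BBC3 encodes PUMA, best known as a p53 target. Its counts in OPM2 were low, from 20 to 83 per library. It fell to 2.41 and 2.47 CPM without IKZF1 and to 2.14 and 2.28 CPM without IKZF3, against 4.93 and 3.79 CPM with empty vector. With lenalidomide it was 1.31 and 2.03 CPM, against 3.59 and 4.94 CPM in untreated cells. The groups did not overlap in any of these comparisons, and the log2 fold changes were -0.82 ± 0.24 (adjusted p = 0.0182), -0.95 ± 0.24 (adjusted p = 0.00768) and -1.35 ± 0.27 (adjusted p = 0.0042). Empty vector and untreated cells lay close in BBC3 (log2 difference 0.03 ± 0.23), and the direction was the same against either control, with -0.78 for IKZF1 knockout (adjusted p = 0.0673) and -0.92 for IKZF3 knockout (adjusted p = 0.0293) against untreated cells. Without empty vector replicate 1 the adjusted p was 0.136 for IKZF1 and 0.0588 for IKZF3, and without lenalidomide replicate 1 it was 0.0945 for the drug. The IKZF1 call was also lost without knockout library a (0.084) or b (0.0733), and the IKZF3 call without knockout library a (0.0518).

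In the other lines BBC3 was not called. It was 12.2 and 10.95 CPM in H929 without IKZF1, against 7.02 and 8.77 CPM with empty vector, and 18.5 and 14.7 CPM in MM1S without IKZF1, against 13.2 and 13.1 CPM with empty vector. Neither difference passed the test (0.55 ± 0.21, adjusted p = 0.113, and 0.34 ± 0.20, adjusted p = 0.225). The IKZF1 effect on BBC3 in OPM2 lay below that in H929 by 1.37 ± 0.32 (adjusted p = 0.0157) and below that in MM1S by 1.16 ± 0.31 (adjusted p = 0.0193). These differences lost their call in the fits of the compared libraries alone (0.122 and 0.074) and without single libraries, OPM2 knockout b among them (0.0515 and 0.0558).

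PMAIP1 encodes NOXA, which binds MCL1 and hastens its breakdown. In MM1S it fell to 8.29 and 6.37 CPM without IKZF1, against 25.7 and 24.2 CPM with empty vector. That is a log2 fold change of -1.76 ± 0.32 (adjusted p = 0.000841), and the call was kept in every alternative run. H929, where NOXA was scarce, held 13.97 and 5.63 CPM without IKZF1, against 5.72 and 5.17 CPM with empty vector, with a wide spread between the knockout libraries and no call (0.85 ± 0.34, adjusted p = 0.136). The MM1S effect was lower than the H929 effect by 2.61 ± 0.46 (adjusted p = 0.00136). With empty vector as its control, the OPM2 effect was higher than that of MM1S by 1.80 ± 0.43 (adjusted p = 0.00981). Against untreated cells the OPM2 change without IKZF1 was -0.88, and its difference from MM1S was not tested with that control. The call of OPM2 against MM1S was lost without MM1S knockout library b (adjusted p = 0.0513).

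In OPM2 NOXA was 38.7 and 34.8 CPM without IKZF1 and 31.5 and 24.1 CPM without IKZF3, against 27.4 and 44.0 CPM with empty vector and 67.6 and 67.8 CPM in untreated cells. Against empty vector neither knockout was called (0.04 ± 0.28 and -0.37 ± 0.28). Against untreated cells the IKZF3 knockout was lower (-1.29 ± 0.28, adjusted p = 0.0111) and the IKZF1 knockout missed the threshold (-0.88 ± 0.28, adjusted p = 0.0733). With lenalidomide NOXA was 39.9 and 31.6 CPM, below both untreated libraries, and the change of -0.92 ± 0.28 just missed the threshold (adjusted p = 0.0518), while DESeq2 (0.0273) and limma-voom (0.0263) called it.

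BAX and BAK1, the pore formers, were not called in H929 or MM1S. BAX was 67.3 and 61.7 CPM in H929 without IKZF1, against 61.4 and 68.7 CPM with empty vector, and 47.3 and 50.2 CPM in MM1S without IKZF1, against 56.5 and 55.3 CPM with empty vector. BAK1 was 117 and 93.0 CPM in H929 without IKZF1, against 85.0 and 86.1 CPM with empty vector, and 71.0 and 76.6 CPM in MM1S without IKZF1, against 78.0 and 68.3 CPM with empty vector. All 4 log2 fold changes lay between -0.20 and 0.29 with no call, and the effects did not differ between lines by a call.

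In OPM2 BAX was 39.1 and 44.7 CPM without IKZF1 and 43.5 and 47.0 CPM without IKZF3, against 94.8 and 54.9 CPM with empty vector. It fell by 0.83 ± 0.19 (adjusted p = 0.00464) and by 0.72 ± 0.19 (adjusted p = 0.00918) on the log2 scale. The empty vector pair was far apart, with replicate 1 the highest of all 18 libraries, and without it the IKZF1 value was -0.36 (adjusted p = 0.034) and the IKZF3 value was -0.24 (adjusted p = 0.137). The IKZF3 call was also lost without knockout library a (adjusted p = 0.0721). Untreated cells held 39.9 and 33.7 CPM, and against them BAX was not lower: 0.19 ± 0.19 (adjusted p = 0.645) without IKZF1 and 0.30 ± 0.19 (adjusted p = 0.401) without IKZF3. With lenalidomide it was 39.6 and 39.8 CPM, close to untreated cells (0.11 ± 0.19, adjusted p = 0.816).

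BAK1 in OPM2 was 111 and 138 CPM without IKZF1, 156 and 163 CPM without IKZF3 and 128 and 133 CPM with lenalidomide, against 143 and 92.6 CPM with empty vector and 85.3 and 85.2 CPM in untreated cells. Lenalidomide raised it by 0.61 ± 0.18 (adjusted p = 0.0378), a call lost in 10 of the leave-outs, those of all 4 compared libraries among them (adjusted p 0.144 to 0.199). The IKZF3 knockout missed the threshold against empty vector (0.44 ± 0.18, adjusted p = 0.0617), passed it without empty vector replicate 1 (0.82, adjusted p = 0.000407) and passed it against untreated cells (0.90 ± 0.18, adjusted p = 0.00505).

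The OPM2 control groups thus differed from each other in 4 of the 10 members, a share near the background of 35.4% of all genes. The effects of the vector, doxycycline and a shared preparation cannot be told apart between these groups. Against untreated cells, empty vector cells were lower in BCL2L11 (-1.21 ± 0.15, adjusted p = 0.000421), PMAIP1 (-0.92 ± 0.28, adjusted p = 0.0207) and BCL2 (-0.75 ± 0.24, adjusted p = 0.0233) and higher in BAX (1.02 ± 0.19, adjusted p = 0.00196), where 35.4% of all genes were called, 19.5% higher and 15.9% lower. The BCL2L11 and BAX calls were kept without empty vector replicate 1, and the BCL2 and PMAIP1 calls were not (adjusted p = 0.256 and 0.166). With the replicate number as a block BCL2 was also not called (adjusted p = 0.0708). A fit of these 4 libraries alone called 0 genes by edgeR, although 4 members had an unadjusted p below 0.05, and fits of each OPM2 knockout with empty vector alone called 113 genes without IKZF1 and 54 without IKZF3, none of them members. With untreated cells as the control for the knockouts, 0 members were called without IKZF1 by edgeR (5 at an unadjusted p below 0.05; 7.78% of genes called) and 4 without IKZF3 (8.3% of genes called): MCL1 and BAK1 higher, BBC3 and PMAIP1 lower.

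**Figure D3:**
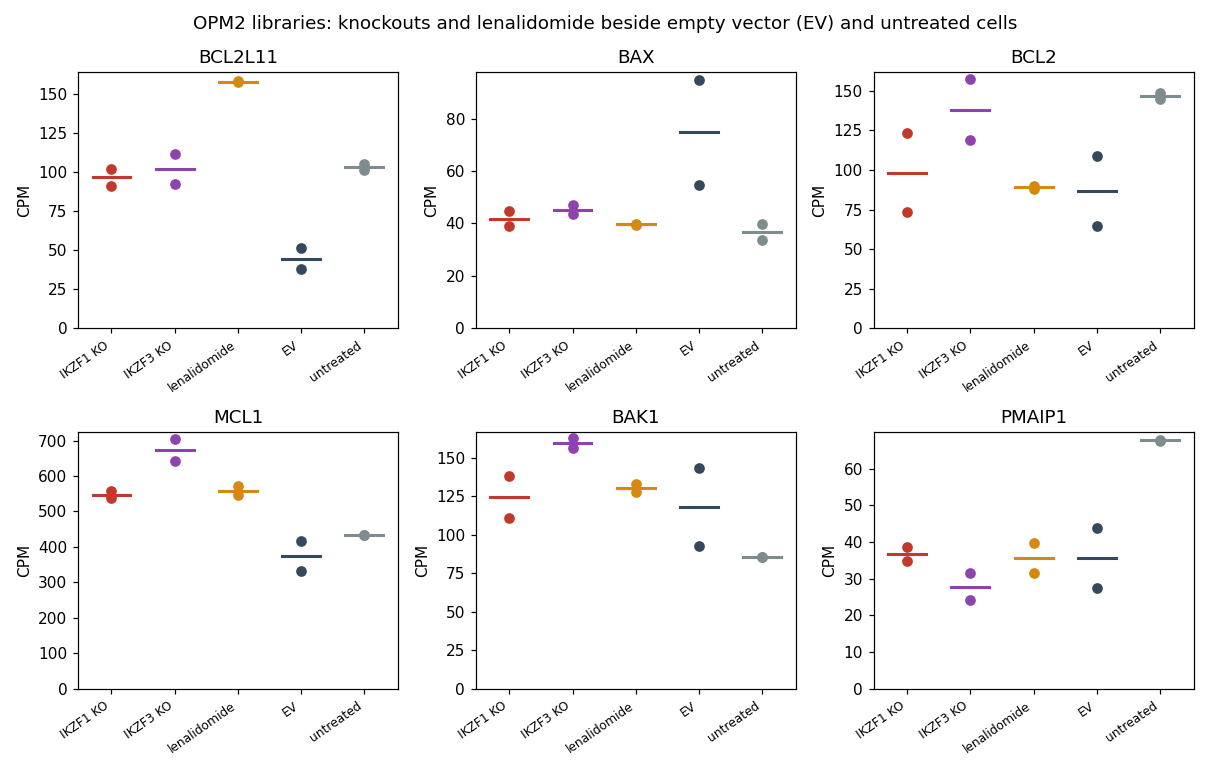
Level in CPM (y axis, from 0) of 6 members in the OPM2 libraries, with knockouts and lenalidomide left of the empty vector (EV) and untreated groups; points are libraries and bars the mean of 2. BCL2L11 in the knockouts lies near the untreated cells and away from both empty vector libraries. BAX in the knockouts lies below both empty vector libraries, which were far apart (94.8 CPM in replicate 1 and 54.9 CPM in replicate 2). MCL1 in the IKZF3 knockout lies above both controls.

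The 3 lines started from different balances of these genes. With empty vector, MCL1 was 374 ± 60.2 CPM in OPM2 and 458 ± 15 CPM in MM1S, against 1843 ± 46.1 CPM in H929 (SD, n = 2 each). MM1S was lower than H929 by 2.01 ± 0.14 (adjusted p = 1.26e-08) and OPM2 by 2.30 ± 0.14 (adjusted p = 3.26e-09) on the log2 scale, while the difference of OPM2 from MM1S missed the threshold (-0.29 ± 0.13, adjusted p = 0.0638). BCL2L1 was highest in MM1S, with 52.6 ± 11.1 CPM in OPM2 and 357 ± 7.04 CPM in MM1S, against 54.2 ± 3.03 CPM in H929. BCL2L11 was also highest in MM1S, with 44.5 ± 9.37 CPM in OPM2 and 179 ± 5.51 CPM in MM1S, against 43.8 ± 1.94 CPM in H929. Log2 differences of MM1S over H929 were 2.72 ± 0.18 for BCL2L1 and 2.03 ± 0.15 for BCL2L11. NOXA was 35.7 ± 11.7 CPM in OPM2 and 25.0 ± 1.07 CPM in MM1S, against 5.44 ± 0.39 CPM in H929, and PUMA was lowest in OPM2 (4.36 ± 0.81 CPM) and highest in MM1S (13.1 ± 0.11 CPM). BAX did not differ between the lines by a call. The IKZF1 effect differed between lines for single members as given above, where 15.9% of all genes were called between MM1S and H929, 12.7% between OPM2 and H929 and 20.8% between OPM2 and MM1S. Between lenalidomide and knockout effects in OPM2, 6.62% of genes were called for IKZF3, with 1 member (BCL2), and 0.282% for IKZF1, with 0 members by edgeR and limma-voom, 2 by DESeq2 and 5 at an unadjusted edgeR p below 0.05. Lines at baseline differ in most genes: 63.2% were called between MM1S and H929, 64.7% between OPM2 and H929 and 67.6% between OPM2 and MM1S, where 8, 7 and 6 of the 10 members were called. The scarce BCL2A1 is among the members called each time. Its call between OPM2 and MM1S rested on 0 against 4 counts (adjusted p = 0.0389 by edgeR).

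On a scale per transcript length, the log2 FPKM of the authors' deposited table, MCL1 ranked first of the 10 members in H929 (9.47 without IKZF1, 8.59 with empty vector) and in all OPM2 groups (6.42 to 7.38). In MM1S BCL2L1 ranked first (7.35 without IKZF1, 7.03 with empty vector) with MCL1 just below (7.18 and 6.97). In the authors' deposited table BCL2 lay between rank 4 and rank 7 in each group, and BAX and BAK1 stood among the highest 4. BCL2A1 was last in each group other than MM1S with empty vector, where BCL2L2 was last at -5.47.

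**Figure D4:**
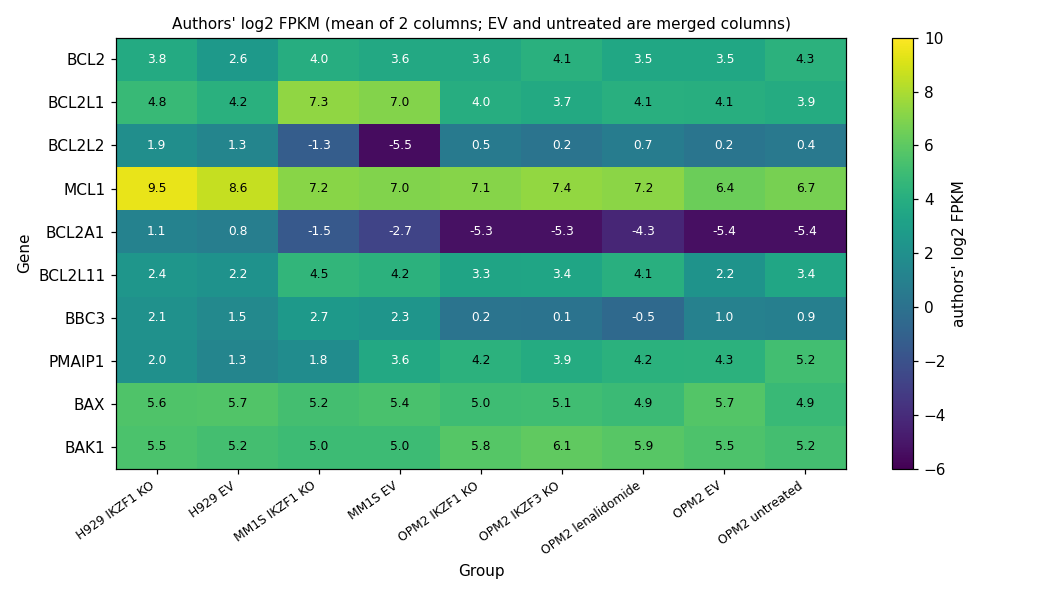
Log2 FPKM of the authors' deposited table (colour and printed value) for the 10 members (rows) in the 9 groups (columns); knockout and lenalidomide cells are means of 2 columns and control cells are the authors' merged column. MCL1 is the highest in H929 and OPM2, and BCL2L1 is the highest in MM1S.

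Other genes of the pathway were counted from lists of relatives and partners. Of 10 tested relatives in the BCL2 family, 2 were called higher in H929 without IKZF1, namely BNIP3 (0.97 ± 0.22, adjusted p = 0.0129) and BMF (0.54 ± 0.14, adjusted p = 0.0241). BNIP3 is a mitophagy receptor and BMF a BH3-only protein tied to the cytoskeleton. In MM1S 2 were higher, BNIP3L (0.66 ± 0.21, adjusted p = 0.031) and BMF (0.43 ± 0.14, adjusted p = 0.0313). With lenalidomide 2 of these 10 were lower in OPM2, BNIP3L (-0.85 ± 0.21, adjusted p = 0.0185) and the BH3-only gene HRK (-1.53 ± 0.42, adjusted p = 0.0314). The list's median was 0.00 in H929, -0.01 in MM1S and -0.17 with lenalidomide. Without IKZF1 in OPM2, 1 of the 10 was higher and 3 lower against empty vector, and 0 higher and 1 lower against untreated cells. Without IKZF3 it was 1 higher and 4 lower against empty vector, and 0 higher and 3 lower against untreated cells. BNIP3L reversed between the controls: without IKZF3 it was 1.28 against empty vector and -1.70 against untreated cells. HRK and BMF were lower without IKZF3 against both controls (HRK -1.61 and -2.17, BMF -0.49 and -0.83). The MM1S calls of BNIP3L and BMF were lost with any 1 of the MM1S libraries left out and with total count scaling. In H929 those of BNIP3 and BMF were lost in 3 of the 4 leave-outs of its libraries. With lenalidomide the BNIP3L call was lost in 3 of the 4 leave-outs of the compared libraries and the HRK call in all 4.

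Of 14 genes of the apoptosome, the caspases and the inhibitors of apoptosis, 2 were called in H929 without IKZF1: BIRC2 was higher (0.78 ± 0.17, adjusted p = 0.00757) and BIRC5, the inhibitor survivin that also serves in cell division, was lower (-0.52 ± 0.15, adjusted p = 0.0348). In MM1S 1 was lower, AIFM1 (-0.44 ± 0.12, adjusted p = 0.0125), a mitochondrial flavoprotein. With lenalidomide the executioner CASP6 was higher (0.49 ± 0.12, adjusted p = 0.0209), and CYCS, which encodes cytochrome c, was lower (-0.43 ± 0.11, adjusted p = 0.0221). In OPM2 2 were higher and 5 lower against empty vector in either knockout, whereas against untreated cells none was called without IKZF1 and 1, CASP6, was higher without IKZF3 (0.77 ± 0.12, adjusted p = 0.00131). Of 7 partners in turnover and at the membrane, 0 were called in H929 and with lenalidomide, 1 rose in MM1S, the ubiquitin ligase gene MARCH5 (0.43 ± 0.13, adjusted p = 0.0228), and 4 were called in each OPM2 knockout against empty vector but 0 against untreated cells. VDAC2, the porin that recruits BAK1, was among these (-0.61 without IKZF1 and -0.54 without IKZF3 against empty vector). The BIRC5 call was lost in 11 of 26 alternatives, and those of BIRC2 and MARCH5 in 3 of the 4 leave-outs of their own line's libraries. The AIFM1 call was lost in 2 of those 4, and the CASP6 and CYCS calls of lenalidomide in all 4 leave-outs of the compared libraries.

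Of 10 transcription factors known to act on members, 0 were called in H929, and 2 rose and 2 fell in MM1S. ATF4, the stress factor known to act on NOXA, fell by 1.36 ± 0.16 (adjusted p = 2.81e-05) in MM1S and its partner DDIT3 (CHOP) fell by 1.19 ± 0.25 (adjusted p = 0.00253). FOXO3, a known activator of BIM and PUMA, rose by 1.13 ± 0.23 (adjusted p = 0.00201) there and STAT3, which can act on MCL1, rose by 0.39 ± 0.13 (adjusted p = 0.034). With lenalidomide DDIT3 fell by 2.26 ± 0.25 (adjusted p = 3.37e-05), MYC fell by 1.29 ± 0.15 (adjusted p = 5.42e-05) and ATF4 fell by 1.23 ± 0.16 (adjusted p = 0.000194), while STAT3 rose by 0.47 ± 0.13 (adjusted p = 0.0272). MYC is a growth regulator that can also act on BIM. In the OPM2 knockouts ATF4, DDIT3 and MYC were lower against both controls: ATF4 was -0.97 without IKZF1 and -1.25 without IKZF3 against empty vector, and -0.72 and -1.01 against untreated cells. The STAT3 call was lost in 12 of 26 alternatives in MM1S and in 6 with lenalidomide, the leave-outs of all 4 compared libraries among them in both, while those of ATF4, DDIT3, FOXO3 and MYC in MM1S or with lenalidomide were kept in all 26.

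Across the 18 libraries, with each line centred on its own mean, the transcripts most like a member were described by Pearson's r over 10313 genes. They were ZNFX1 (r = 0.96) and SAMHD1 (0.957) for MCL1, SAMD9 (0.928) and TMEM123 (0.897) for BCL2, THTPA (0.906) and UNC93B1 (0.887) for BCL2L1, and NCK2 (0.963) and LIX1L (0.96) for BCL2L2. For the BH3-only genes they were ZBTB4 (0.941) and STAM2 (0.939) for BCL2L11, CD48 (0.874) and CCZ1 (0.855) for BBC3, and METTL4 (0.865) and RNF139 (0.848) for PMAIP1. For the effectors they were GET4 (0.979) and UBE2J2 (0.977) for BAX, and AVEN (0.93) and MAGED2 (0.893) for BAK1. Among the members themselves BCL2L11 ran against BAX (r = -0.822) and BCL2 ran with MCL1 (0.681). The values share libraries, depth and the OPM2 empty vector pair, so they describe these libraries and carry no test.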

How the data were processed

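RNA of 18 libraries (9 groups of 2) was measured as gene counts. The authors deposited whole-number read counts per Entrez gene, unnormalized; Subread, featureCounts and limma with build GRCh38 are named per the submitters' processing notes, and versions and the strand setting are not given in the sources used here. The authors also deposited log2 FPKM values, with each control group merged into 1 column; these were used only to order levels between genes and were not tested. Knockout count columns carry other numbers than the titles, so each was assigned to its group alone, under the names a and b. Nothing says that replicates were separate cultures, so the p-values measure the spread between these libraries, which may be technical.

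Counts were fitted with edgeR 4.0.16 in R 4.3.3: 14522 genes kept by filterByExpr, TMM scaling, 1 robust quasi-likelihood fit over all 18 libraries with a mean per group, and Benjamini-Hochberg adjustment over all genes at 0.05. The SE of a log2 fold change came from the fold change and the F statistic, and CPM are counts scaled by the TMM library size. An exact permutation test of 2 libraries against 2 has a smallest p of 0.333 and was not used. The fit was tested on simulated data for the MM1S comparison. Of 50 genes each, it recovered 31 raised 2-fold, 30 lowered to 0.5, 43 raised 4-fold and 40 lowered to 0.25. A change of 2-fold can thus go without a call. Only these genes were changed in the simulation, whereas 28.3% of all genes were called in the real MM1S comparison. The shares recovered need not hold for the real data. Alternatives were other scalings and filters, DESeq2 1.42.0, limma-voom 3.58.1, the compared libraries alone, untreated cells as control, a replicate block, and each library left out. The 10 members are all named; of each other list, up to 4 called genes with the smallest p are named in each comparison, and the alternatives for these were added after seeing the data. The members and lists were chosen with earlier results of these data known. A planned search of protein sequences was not run. A result for 1 gene of the other lists is not reported here.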

Additional observations from a re-analysis of the deposited data

Results flagged for a closer look

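The change after IKZF1 knockout was compared between lines by a test of the difference itself over all genes (edgeR). Among the 10 members, 3 were called between MM1S and H929, 3 between OPM2 and H929 and 4 between OPM2 and MM1S. Several of these calls depended on single libraries. Of all tested genes, 15.9% were called between MM1S and H929, 12.7% between OPM2 and H929 and 20.8% between OPM2 and MM1S. Each value is a difference of log2 fold changes. MM1S minus H929 was -0.67 for MCL1 (adjusted p = 0.025), -2.61 for PMAIP1 (adjusted p = 0.00136) and 4.21 for BCL2L2 (adjusted p = 0.000683). OPM2 minus H929 was -0.85 for BCL2L1 (adjusted p = 0.0354), 0.84 for BCL2L11 (adjusted p = 0.0181) and -1.37 for BBC3 (adjusted p = 0.0157). OPM2 minus MM1S was 0.78 for BCL2L11 (adjusted p = 0.015), -1.16 for BBC3 (adjusted p = 0.0193), 1.80 for PMAIP1 (adjusted p = 0.00981) and -4.35 for BCL2L2 (adjusted p = 0.000862). The BCL2L1 call was lost in 16 of 26 alternatives, with an adjusted p of up to 0.262. Both BCL2L11 and both BBC3 calls were lost in fits of the compared libraries alone and in 3 to 5 leave-outs, and the MCL1 call in 7 leave-outs. The BCL2L2 values depend on the prior count, since MM1S with empty vector had 2 counts in all, and are no bound. In OPM2 the lenalidomide effect minus the IKZF3 effect was -1.38 for BCL2 (adjusted p = 0.0313), where 6.62% of genes were called. The drug effect is taken from untreated cells and the IKZF3 effect from empty vector, which lay lower in BCL2 by 0.75. All values that involve an OPM2 knockout use the empty vector group, whose replicate 1 stood apart. In BCL2L11 both of its libraries (37.9 and 51.1 CPM) lay below both untreated libraries (105 and 101 CPM). Against untreated cells the OPM2 change in BCL2L11 without IKZF1 was -0.10. The changes against empty vector were 0.27 in H929 and 0.33 in MM1S. For PMAIP1 the OPM2 change without IKZF1 was 0.04 against empty vector and -0.88 against untreated cells. Its change in MM1S was -1.76 against empty vector. Differences between lines were not tested with untreated cells as the OPM2 control.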

How the results depend on the processing

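With untreated cells as control, of the values called against empty vector, signs reversed in OPM2 without IKZF1 for BCL2L11 (-0.096), BAX (0.186), XIAP (-0.176), BNIP3L (-1.497), BID (0.414), BAD (0.149) and USP9X (-0.127). Without IKZF3 they reversed for BCL2 (-0.087), BCL2L11 (-0.021), BAX (0.296), HTRA2 (0.054), XIAP (-0.171), BNIP3L (-1.698), BID (0.524), USP9X (-0.142) and HUWE1 (-0.185). Values with no call could turn sign too, BCL2 and PMAIP1 without IKZF1 among them. With that control 0 members were called without IKZF1. The alternatives for genes other than the 10 members were chosen after seeing the data.

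Numbers of members called moved as follows. In fits of the compared libraries alone they were 8 for MM1S (7023 genes called) and 8 for lenalidomide (5566 genes called); 0 for OPM2 without IKZF1, without IKZF3 and for its empty vector against untreated cells; 0 for the IKZF1 effect of OPM2 minus H929, 2 for OPM2 minus MM1S and 0 for lenalidomide minus IKZF3. Without a low-count filter they were 5 for lenalidomide, 6 for OPM2 minus H929, 3 for lenalidomide minus IKZF1 and 2 for lenalidomide minus IKZF3. With DESeq2 they were 5 for MM1S, 6 for lenalidomide, 5 for OPM2 minus H929, 2 for lenalidomide minus IKZF1 and 4 for lenalidomide minus IKZF3. At 5 CPM in 2 libraries MM1S had 4. The cause of these moves was not tested; the compared libraries alone leave fewer samples.

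Leaving out each library in turn gave 1 to 4 members called in H929, 2 to 5 in MM1S, 3 to 4 in OPM2 without IKZF1, 2 to 6 without IKZF3, 0 to 6 with lenalidomide, 2 to 7 between the OPM2 controls and 0 to 1 between the knockouts. Genes called over the same leave-outs ran from 682 to 3321 in H929, 2314 to 6310 in MM1S, 3057 to 7967 in OPM2 without IKZF1, 2535 to 7996 without IKZF3, 579 to 3266 with lenalidomide, 2135 to 7827 between the OPM2 controls and 119 to 1338 between the knockouts. The IKZF1 effect gave 2 to 3 for MM1S minus H929, 0 to 5 for OPM2 minus H929 and 2 to 7 for OPM2 minus MM1S; lenalidomide gave 0 to 6 minus IKZF1 and 0 to 6 minus IKZF3. Between lines the ranges were 7 to 8 for MM1S and H929, 6 to 7 for OPM2 and H929 and 5 to 7 for OPM2 and MM1S. Where this leaves 1 library in a group, it is assumed to vary like the others.

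In all, 2840 alternative values kept their direction and side of the threshold, 292 lost and 63 gained a call, and 16 reversed. The values kept include leave-outs of libraries outside the compared groups and values that had no call to lose. They are therefore no measure of how firm the calls are. Total count scaling alone moved the median of all genes by over 0.1 on the log2 scale, with shifts from -0.174 to 0.229. With the replicate block, empty vector against untreated cells of OPM2 called 3 members and 1705 genes, with BCL2 at -0.815 (adjusted p = 0.0708); deviations of same-numbered libraries correlated at 0.125 over 2 pairs. Between the empty vector groups of different lines, a block added after seeing the data called 10 members (MM1S and H929), 5 (OPM2 and H929) and 4 (OPM2 and MM1S), as many as the same libraries without it, and the correlations were -0.076 to 0.059. No paired analysis was possible for the knockout and lenalidomide comparisons because the knockout columns carry no label numbers and the lenalidomide libraries carry letters. Counts of BCL2L2 in MM1S, BBC3 in OPM2 and BCL2A1 are low enough for depth to limit them.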
